A study of Mus musculus with 1298 samples.

Results

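Brown adipocytes of the Pax7 lineage were examined at E16.5 (E, embryonic day) by gathering the cells whose highest marker panel was Fabp4, Car3, Cox7a1 and Adipoq, and by keeping those cells whatever their share of mitochondrial counts. A panel score was the mean of log2(1 + 10000 × count / cell total) over 4 genes. A cell was a member when this adipocyte panel scored at least 0.7 and no other of 9 panels scored higher. The rule gave 274 cells of 3916, of which 210 came from the 10x library of E16.5 and 64 from the Smart-seq2 plates of that day. The cells were thus chosen by the measured levels of the panel genes, so their levels, and the levels of any other gene in the member cells against other cells, are given as a description with no test.

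The embryos were Pax7CreER:R26R-stop-EYFP, in which tamoxifen lets Cre, made where Pax7 is expressed, switch on YFP for good in the cell and its descendants. All groups shared that genotype and 1 dose of tamoxifen, 75 µg per g body weight, at E9.5, and were collected at E12.5, E14.5 or E16.5 and sorted for YFP. Limbs, viscera and heads were removed before digestion. Embryos of a day were pooled for the bulk sorts, and the study's methods state that several embryos were also pooled for the 10x and Smart-seq2 sorts. The labels trace neither the 10x cells nor the Smart-seq2 wells to an embryo. For bulk RNA-seq of E16.5, YFP+ cells were sorted further into Pdgfra-/Cd36+ cells, with 2 libraries, and Pdgfra+ cells, which were split on Thy1 and gave 4 libraries. The column names keep no sign for Thy1, so the 4 Pdgfra+ libraries form 1 group here. The labels give E16.5 for all 6 libraries, but the study's text elsewhere calls the Pdgfra+/Thy1- sort E14.5, so an effect of embryonic age in 2 of the 4 Pdgfra+ libraries cannot be told apart from the sort. The study's methods call duplicates of a sort technical, so p-values from these 6 libraries do not measure the spread between embryos. They measure technical spread together with any difference between the Thy1 sorts pooled in the Pdgfra+ group.

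Brown adipocytes burn fat to make heat. They store triglyceride in many small droplets, release fatty acids from them when noradrenaline raises cAMP, oxidise the fatty acids in a dense population of mitochondria, and leak protons back through Ucp1 in the inner membrane. Their mitochondrial mass is set up under the nuclear receptors Pparg, Ppara and Esrra and the coactivators Ppargc1a and Ppargc1b, with Prdm16 and Ebf2 among the factors that set brown identity. A high mitochondrial share of counts is often used as a sign of a damaged cell, and the limit of 8% marked below is one such limit.

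The members made up 22.1% of the 949 cells of the 10x library (exact binomial 95% interval 19.5% to 24.9%, which covers counting error only). On Smart-seq2 they were 18.7% of 342 cells (14.7% to 23.3%), with 25 of 91 cells on plate b1, 16 of 88 on b2, 13 of 91 on b3 and 10 of 72 on b4. Plate b1 thus held the highest share, 27.5%, and its interval, 18.6% to 37.8%, overlapped that of plate b4, 6.87% to 24.1%. Before E16.5 the same rule found 1 cell of 1017 at E12.5 and 2 of 968 at E14.5 on 10x, and 0 of 314 (a floor of 3 cells allows up to 0.955%) and 1 of 326 on Smart-seq2. The single cell of E12.5 carried 1 UMI of Car3 and scored the same on another panel. The Smart-seq2 cell of E14.5 had all 4 panel genes, with 2899 counts of Car3 and 90 of Pparg, but 0 of Ucp1.

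A member from the 10x library had a median of 2684.5 UMIs (563 to 6092), against 1621 over all cells of that library. A Smart-seq2 member had a median of 817351 estimated counts (138950 to 2694971). The bulk libraries held between 17320736 and 32947290 counts. Scrublet marked 8 of the 949 10x cells of E16.5 as doublets, 4 of them members, and these were kept. The 10x library shared 1 cell barcode with the library of E12.5 and 1 with that of E14.5.

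The 4 panel genes were not equally spread over the members. Fabp4, a fatty acid carrier of the cytosol (chr3:10204088-10208576, mm10), was found in 195 of 210 10x members, and Car3, a carbonic anhydrase abundant in adipocytes (chr3:14863512-14872523), in 184. Cox7a1, a subunit of cytochrome c oxidase found in brown fat and muscle (chr7:30184144-30186078), was found in 129, and the adipokine gene Adipoq (chr16:23146536-23158028) in 130. On Smart-seq2 all 64 members had Fabp4, Car3 and Adipoq, and 57 had Cox7a1. In bulk all 4 stood higher in Pdgfra-/Cd36+ cells. Fabp4 was at 4576 and 3935 CPM against 30.9 to 200.2 CPM, Car3 at 21069 and 19735 CPM against 66.4 to 574 CPM, Cox7a1 at 221 and 200.2 CPM against 1.58 to 4.77 CPM, and Adipoq at 1668 and 1228 CPM against 4.10 to 64.9 CPM. The 10x scores reached from 0.750 to 5.68 with a median of 3.81, and the Smart-seq2 scores from 2.43 to 5.14.

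Near the threshold the 10x members were of another kind. The lowest members scored 0.750 and 0.762 and the highest cells outside scored 0.686 and 0.672, and 16 members lay within 0.2 above the threshold. In 20 members another panel scored exactly as high. The 31 members with 1 panel gene had a median of 1245 UMIs and a mitochondrial share of 1.41%, while the 96 with all 4 had 2807.5 UMIs and 4.09%. In the 43532 UMIs of the 1-gene members there was none of Chchd10, Gpd1, Pparg, Cidea, Ucp1 or Plin1, whereas the 4-gene members held 1702.5 CPM (counts scaled to 1000000 per library or class) of Chchd10 and 809.9 CPM of Gpd1. The progenitor gene Dlk1 ran the other way, at 6087.5 CPM in the 1-gene members and 675 CPM in the 4-gene members, and Col1a1 at 2113 and 103 CPM. With only the members that had at least 2 panel genes, the share of the library was 18.9% and the members' median mitochondrial share 3.72%.

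**Figure D1:**
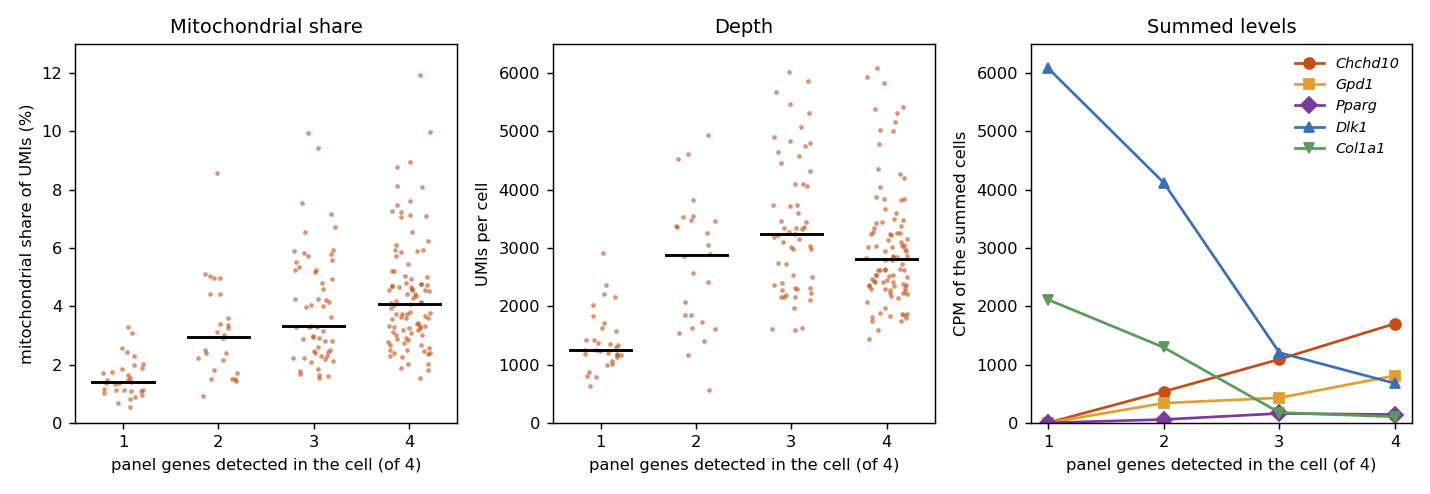
Members of the 10x library by the number of panel genes detected in the cell (x axis, 1 to 4; 31, 26, 57 and 96 cells). Left, mitochondrial share of UMIs per cell (%); middle, UMIs per cell; right, summed level in CPM of 5 genes. Points are cells and bars are medians, which run from 1.41% to 4.09% for the mitochondrial share, from the cells with 1 panel gene to those with 4, and Dlk1 stands at 6087.5 and 675 CPM in them where Chchd10 stands at 0 and 1702.5 CPM.

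The mitochondrial share, which the rule did not use, was higher in the members than in the other cells of the same library or plate. On 10x the members had a median of 3.30% (0.538% to 11.9%), the cells led by the progenitor panel (Ogn, Aspn, Postn, Igf1; 190 cells, here progenitor-panel cells) 1.44%, and the cells led by the dermal panel (Twist2, Lum, Egfl6, Thy1; 298 cells, dermal-panel cells) 1.34%. On Smart-seq2 the medians were 9.54% (4.29% to 13.5%), 2.33% and 2.69%, and the muscle progenitor and myocyte panels lay between, at 4.197% and 5.23%. Plate by plate the members' medians were 9.49%, 9.05%, 10.4% and 9.97%, and the highest plate median of the progenitor-panel cells was 2.72%. Cells are not replicates, and no test was made between these classes.

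A limit of 8% would have removed most of the members on one platform and few on the other. Over 8% were 49 of the 64 Smart-seq2 members but 2 of the other 278 cells, 1 of the muscle progenitor panel and 1 of the myocyte panel. By plate the counts were 16 of 25, 13 of 16, 13 of 13 and 7 of 10. On 10x, 9 of the 210 members and 0 of the other 739 cells were over 8%. With the limit in place 15 Smart-seq2 members were left, none of them on plate b3, and they made up 5.16% of the cells under the limit.

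The bulk libraries, which played no part in choosing the cells, showed the same order. Mitochondrial genes took 20.8% and 15.9% of the counts of the 2 Pdgfra-/Cd36+ libraries. In the 4 Pdgfra+ libraries they took 3.88%, 3.48%, 3.83% and 4.35%. The groups did not overlap, and the means, 18.4% ± 3.41 (SD, n = 2) and 3.88% ± 0.357 (SD, n = 4), differed by 14.48 percentage points (two-sided exact permutation test, p = 0.0667, the smallest that 15 arrangements allow). In bulk samples, fewer cells of a type and less RNA per cell cannot be told apart.

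**Figure D2:**
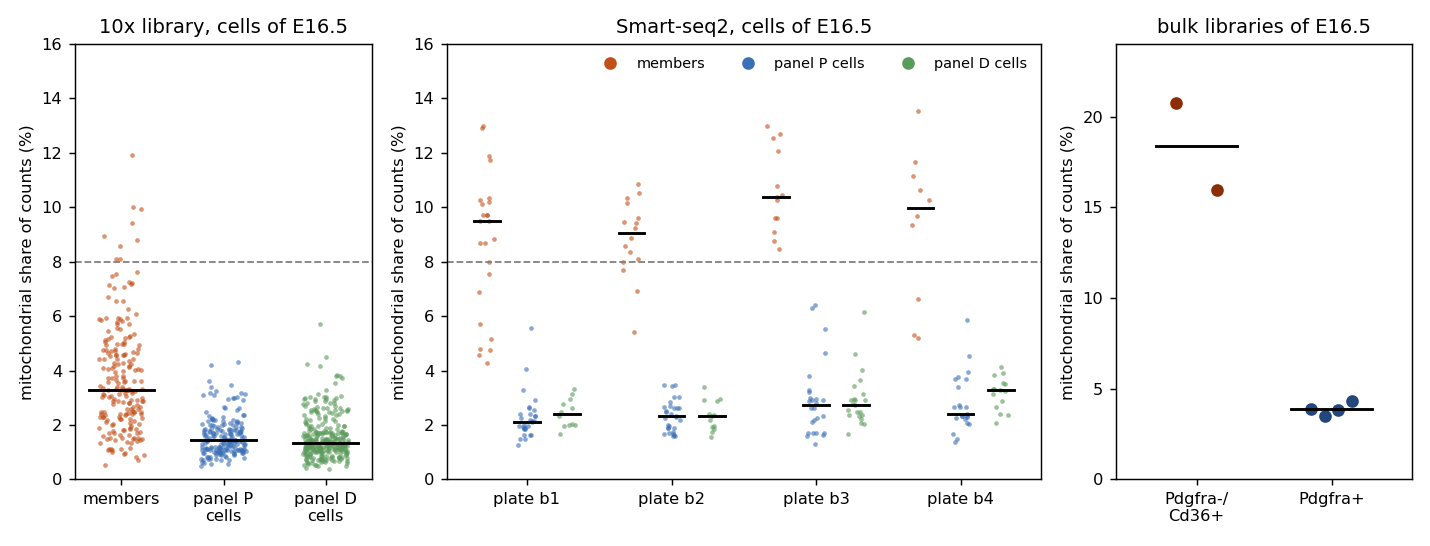
Mitochondrial share of counts at E16.5 (y axis, %). Left and middle, single cells of the 10x library and of 4 Smart-seq2 plates, with members in orange, progenitor-panel cells (panel P) in blue and dermal-panel cells (panel D) in green, bars at the medians and a dashed line at 8%; right, the 6 bulk libraries with bars at the group means. The Smart-seq2 members have plate medians of 9.05% to 10.4%, and the 2 Pdgfra-/Cd36+ libraries at 20.8% and 15.9% stand above the 4 Pdgfra+ libraries.

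The share was spread over the 13 protein genes of the mitochondrial genome. In the summed 10x members against the summed progenitor-panel cells, 11 of 13 were at least 2-fold higher, from mt-Co3 at 0.78 (log2 ratio of CPM) to mt-Nd6 at 2.27, and on Smart-seq2 13 of 13. In bulk, 13 of 13 rose in Pdgfra-/Cd36+ cells, with a median log2 fold change of 2.62 (edgeR quasi-likelihood test, adjusted p under 0.05 by Benjamini-Hochberg). The messenger of mt-Co2, a core subunit of cytochrome c oxidase, stood at 22328 and 16682 CPM in the Pdgfra-/Cd36+ libraries and at 3343 to 3689 CPM in the Pdgfra+ libraries (log2 2.79, SE 0.17, edgeR adjusted p = 2.42e-05).

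Counts of genes below cover only those with enough counts in either class, are a description, and are read against the share of all genes that passed the same rule. Between members and progenitor-panel cells, 21.6% of 7093 genes with enough UMIs were at least 2-fold higher on 10x and 21.9% at least 2-fold lower, and 23.1% and 34% of 13851 genes on Smart-seq2. Against dermal-panel cells the shares were 21.2% higher and 19.6% lower on 10x, and 22% and 29.7% on Smart-seq2. In bulk, 21.4% of 17545 genes rose in Pdgfra-/Cd36+ cells and 21.8% fell, 43.2% in either direction. These shares rest on 3751 genes that rose and 3829 that fell, and the numbers were 2490 and 2486 without Pdgfra-/Cd36+ replicate 1 and 2299 and 2418 without replicate 2. The median over all genes was -0.0025, -0.23 and -0.03 on the log2 scale in the 3 settings. Bulk CPM are scaled by the total of the library, while bulk fold changes come from the edgeR model, whose TMM scaling differs between the groups, so a fold change is not the plain ratio of the CPM. Cd36 and Pdgfra were used for the sort, and their changes in bulk, log2 3.48 for Cd36 and -5.47 for Pdgfra, only check it.

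**Figure D3:**
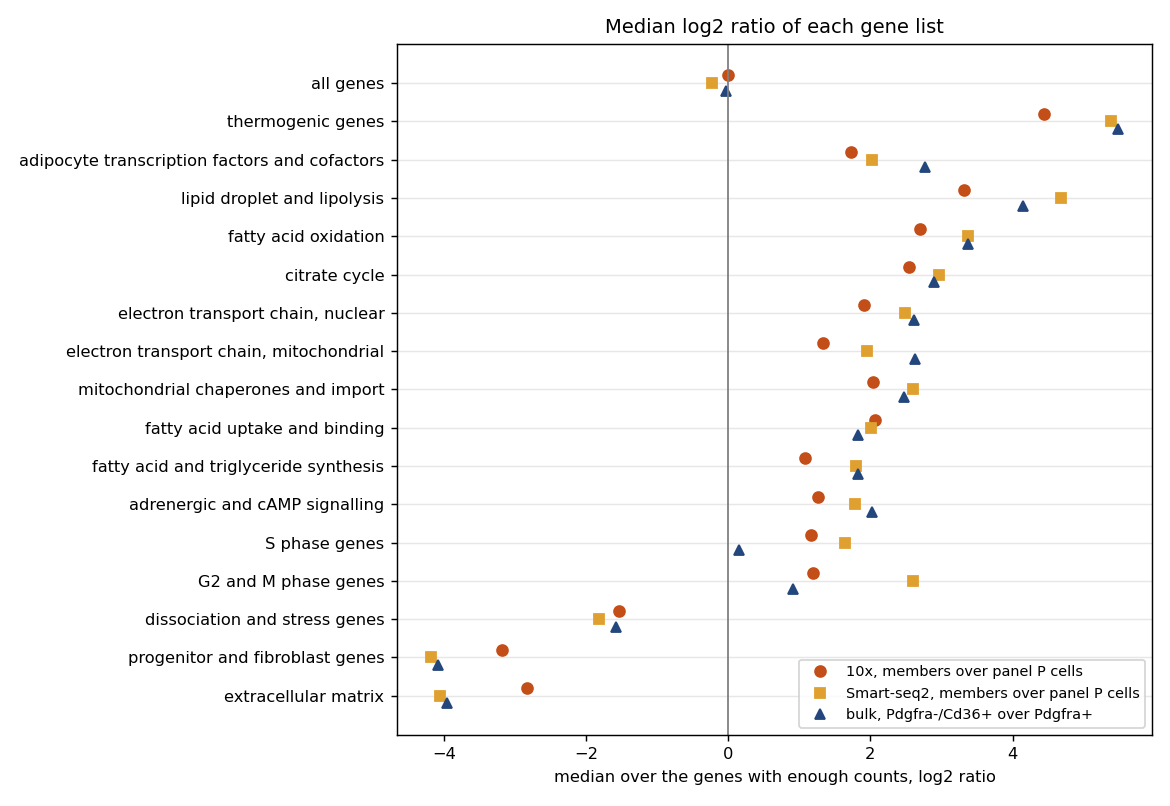
Median log2 ratio (x axis) over the genes of each list with enough counts (y axis), for 10x members over progenitor-panel cells (circles), Smart-seq2 members over progenitor-panel cells (squares) and bulk Pdgfra-/Cd36+ over Pdgfra+ (triangles). All genes lie near 0, the citrate cycle at 2.55, 2.96 and 2.89, and the extracellular matrix at -2.82, -4.06 and -3.95.

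Thermogenic genes were present in the members, and the list summed to 2089, 2069, 2017 and 1750 CPM on the 4 plates against 275 to 334 CPM in progenitor-panel cells. Much of this sum came from genes other than Ucp1, among them Chchd10 and Cpt1b. Ucp1 itself was found in a minority of the members. Ucp1, the uncoupling protein of brown fat (chr8:83290352-83298452), was found in 15 of 210 10x members, with 21 UMIs in all, and in 0 of the other 739 cells. On Smart-seq2 it was found in 25 of 64 members, with 4202 counts of which 5 cells held 69.3%, and in 1 of the other 278 cells, with 10 counts. The plates gave 11 of 25, 6 of 16, 4 of 13 and 4 of 10 members, so that Ucp1-positive members were not confined to a plate. Thinned to 1000 UMIs per cell, 4.41% of 204 members still had Ucp1 (2.04% to 8.21%). In bulk Ucp1 stood at 259.9 and 205.5 CPM in the Pdgfra-/Cd36+ libraries and at 0.808 to 6.23 CPM in the Pdgfra+ libraries (log2 6.49, SE 0.67, edgeR adjusted p = 0.000239).

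Some other thermogenic genes, such as Cidea and Chchd10, were found in more of the members than Ucp1 was. Cidea, a lipid droplet protein of brown fat, was found in 48 of the 10x members and 52 of the Smart-seq2 members. Its plate levels were 317, 277, 307 and 225 CPM, and it rose in bulk from at most 7.13 CPM to 541 and 429.8 CPM (log2 7.18, SE 0.78, edgeR adjusted p = 0.000305). Chchd10, a protein of the mitochondrial intermembrane space, was found in 154 of the 10x members at 1242 CPM (Poisson 95% interval 1154 to 1334) against 19.9 CPM in progenitor-panel cells, and in 63 of 64 Smart-seq2 members. On 10x Chchd10 thus held most of the 1720 CPM to which the thermogenic list summed in the members. Kcnk3, a potassium channel, had 55 UMIs in the 10x members and 0 in progenitor-panel cells, which is at least 9.25-fold higher at a floor of 3 UMIs. Cox8b, a subunit of cytochrome c oxidase in brown fat and muscle, had 33 UMIs against 0, at least 5.55-fold higher.

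As a list, 5 of the 9 thermogenic genes with enough UMIs were at least 2-fold higher on 10x and 2 at least 2-fold lower, 9 and 4 of 13 on Smart-seq2, and 10 of 15 rose in bulk, with 1 that fell. The 10x median was 4.44, or 1.82 with the genes absent from progenitor-panel cells set to their bound, and the bulk median was 5.49. Cpt1b, which carries long-chain fatty acids into mitochondria in muscle and brown fat, stood at 375, 346, 290.3 and 317 CPM on the 4 plates against 0.838 CPM in progenitor-panel cells. Dio2, the deiodinase that activates thyroid hormone, was found in 2 members on 10x and 15 on Smart-seq2, and rose in bulk from at most 0.924 CPM to 64.96 and 64.9 CPM. Elovl3, a fatty acid elongase of active brown fat, stayed near 0, at 1.45 and 0.728 CPM in the Pdgfra-/Cd36+ libraries. It rose there (log2 4.10, edgeR adjusted p = 0.0186), but not without Pdgfra-/Cd36+ replicate 1 (adjusted p = 0.141) or replicate 2 (0.0551). Ckb, the cytosolic creatine kinase, fell by 3.19 on the log2 scale (edgeR adjusted p = 2.31e-05). Slc27a2, Gatm, Gamt and Atp2a2 did not pass the test.

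**Figure D4:**
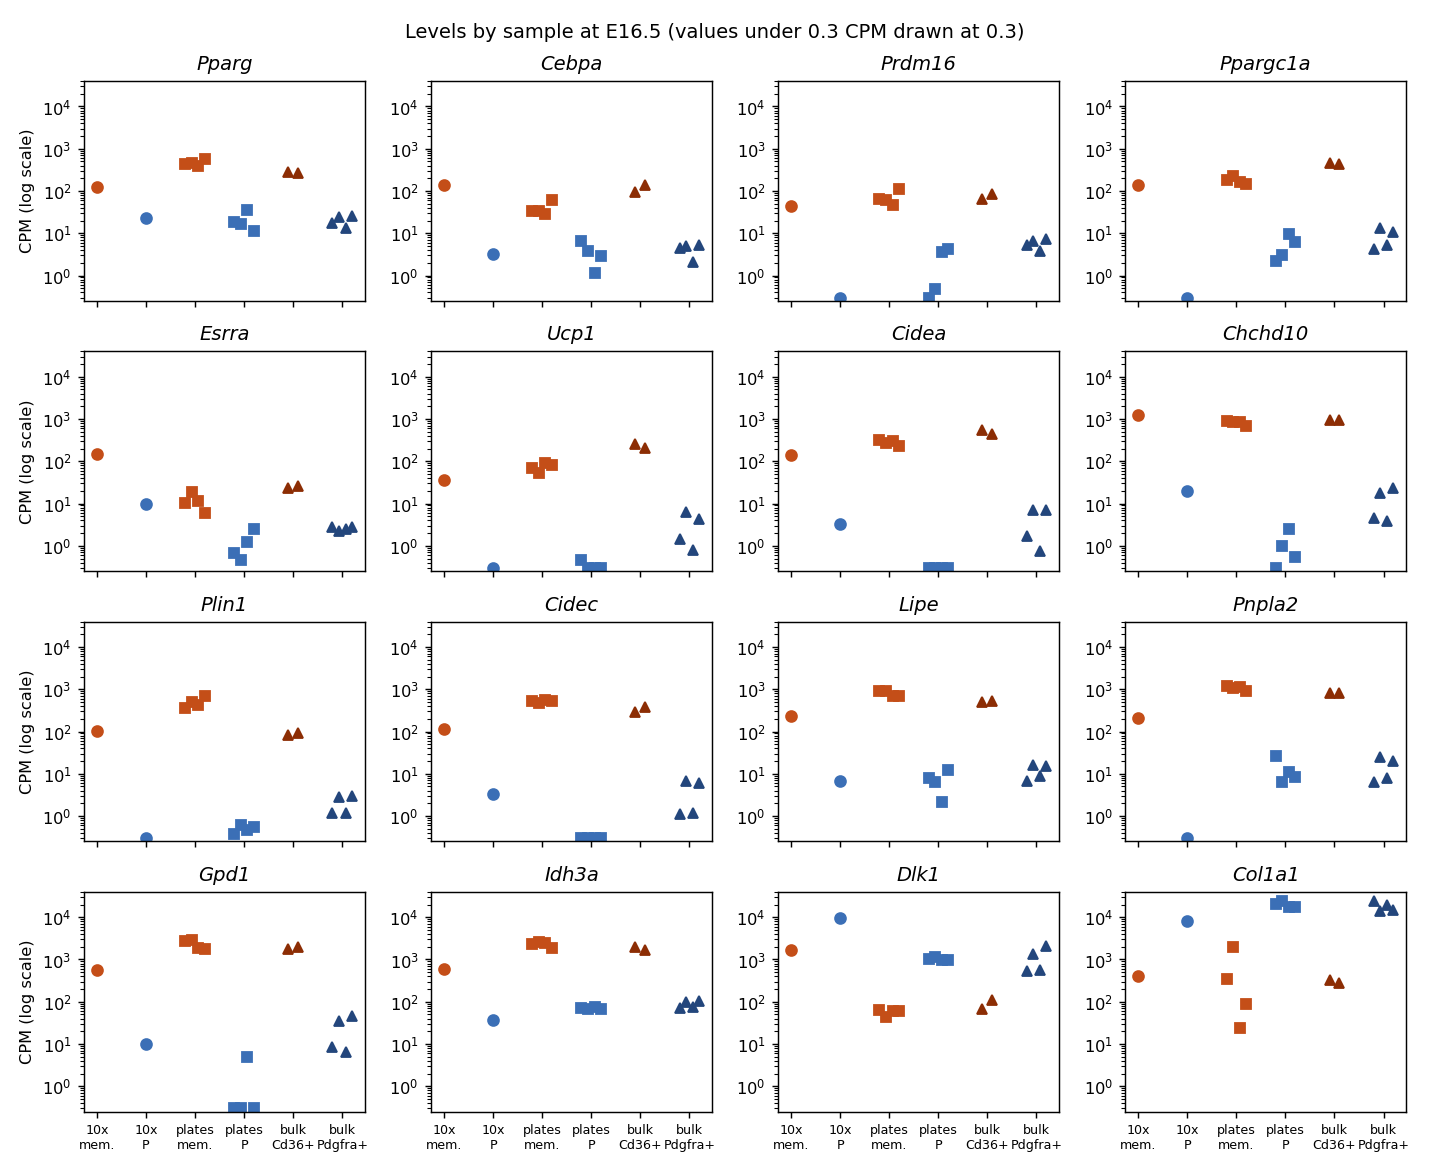
Levels of 16 genes at E16.5 (y axis, CPM, log scale, values under 0.3 drawn at 0.3) in summed 10x cells (circles), in summed cells of each of 4 Smart-seq2 plates (squares) and in 6 bulk libraries (triangles); orange and dark red are members and Pdgfra-/Cd36+ libraries, blue are progenitor-panel cells and Pdgfra+ libraries. Pparg lies at 387 to 560.1 CPM in the members of the plates and at 11.6 to 35.9 CPM in progenitor-panel cells, Dlk1 and Col1a1 have their highest points in blue, and Ucp1 lies at 53.5 to 92.3 CPM in the members of the plates.

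Most adipocyte transcription factors, and the coactivators of mitochondrial genes, were higher in the members and rose in bulk. Pparg, the nuclear receptor that drives adipocyte differentiation, stood at 445, 457, 387 and 560.1 CPM on the 4 plates, against 11.6 to 35.9 CPM in progenitor-panel cells, and was found in all 64 Smart-seq2 members. In bulk Pparg stood at 282 and 269 CPM against 13.3 to 25.7 CPM (log2 4.08, SE 0.255, edgeR adjusted p = 2.58e-05). Cebpa, its partner in differentiation, had 84 UMIs in the 10x members and 1 in progenitor-panel cells, and rose in bulk by 5.05 (SE 0.33). Ppargc1a, the coactivator of mitochondrial biogenesis, had 85 UMIs and 0, at least 14.3-fold higher, and stood at 185, 231, 165 and 144 CPM on the plates. It rose in bulk from at most 13.4 CPM to 462 and 437 CPM (log2 6.04, SE 0.45, edgeR adjusted p = 4.95e-05).

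Its relative Ppargc1b had 85 UMIs against 4, and rose in bulk by 5.31 (SE 0.35). Esrra, a nuclear receptor that works with both coactivators on genes of oxidative metabolism, stood at 22.7 and 25.5 CPM in the Pdgfra-/Cd36+ libraries and at 2.25 to 2.83 CPM in the Pdgfra+ libraries (log2 3.52, SE 0.22, edgeR adjusted p = 2.75e-05). Ppara, the receptor that induces fatty acid oxidation, rose by 5.18 (SE 0.28). Prdm16, a zinc finger protein that promotes brown over muscle fate, was found in 26 10x members and 54 Smart-seq2 members, with 27 UMIs against 0 in progenitor-panel cells, and in bulk stood at 65.9 and 86.5 CPM against 3.87 to 7.37 CPM (log2 4.02, SE 0.25, edgeR adjusted p = 2.58e-05). Klf15, a factor of adipocyte and muscle metabolism, was listed at 0 in the Smart-seq2 progenitor-panel cells and found in 38 members.

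Of the 22 genes of this list 15 rose in bulk and none fell, with a median of 2.77, and 9 of 17 on 10x and 13 of 22 on Smart-seq2 were at least 2-fold higher, with 2 and 4 at least 2-fold lower. The Ebf genes, which act early in the adipocyte lineage, did not pass the test in bulk. Ebf2 stood at 348 and 416 CPM in the Pdgfra-/Cd36+ libraries, above all Pdgfra+ libraries (log2 2.12, SE 1.02, edgeR adjusted p = 0.133). The Pdgfra+ group spread widely, at 10.7 and 169 CPM in replicate 1 and at 22.2 and 237 CPM in replicate 2. The 2 Pdgfra+ libraries of a replicate came from different Thy1 sorts. On 10x Ebf2 was 0.74 above progenitor-panel cells but 3.33 above dermal-panel cells (log2 ratios). Ebf1 stood at 149 and 162 CPM against 162 to 179 CPM (edgeR adjusted p = 0.299). Nfia, Rxra and Nr1h3 rose with all 6 libraries, but without Pdgfra-/Cd36+ replicate 2 their adjusted p were 0.0797, 0.0514 and 0.0516. Cebpd, Ebf3, Zfp423, Zfp516 and Ehmt1 did not pass the test.

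Genes of the lipid droplet and of lipolysis were higher in the members. Plin1, the coat protein that gates lipolysis, had 60 UMIs in the 10x members and 0 in progenitor-panel cells, at least 10.1-fold higher, and stood at 363, 509, 418 and 697 CPM on the 4 plates. In bulk Plin1 stood at 83.3 and 91.6 CPM against 1.21 to 3.02 CPM (log2 5.72, SE 0.39, edgeR adjusted p = 3.46e-05). The lipases Pnpla2, which takes the first fatty acid off triglyceride, and Lipe, which takes the next, had 124 and 138 UMIs in the 10x members against 0 and 2. They rose in bulk by 6.13 (SE 0.53) and 5.75 (SE 0.34). G0s2, an inhibitor of Pnpla2, rose by 4.78 (SE 0.45), and Abhd5, its activator, by 1.76 (SE 0.15). Cidec, which enlarges droplets, was found in 62 of 64 Smart-seq2 members and rose by 6.78 (SE 0.73).

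Of the 14 genes of this list tested in bulk 13 rose, with a median of 4.15, and the exception was Hilpda, at 16.53 and 36.5 CPM against 30.8 to 54.9 CPM (edgeR adjusted p = 0.294). On 10x 9 of 13 were at least 2-fold higher and on Smart-seq2 12 of 14. Plin5, the droplet protein that tethers mitochondria, was low on 10x with 6 UMIs but was found in 49 Smart-seq2 members and rose by 6.96 (SE 0.84) in bulk. Gpd1, which makes the glycerol backbone of triglyceride, stood at 2697, 2931, 1838 and 1796 CPM on the plates against 1.29 CPM in progenitor-panel cells, and rose by 6.60 (SE 0.80). Of 18 genes of fatty acid and triglyceride synthesis 11 rose and 2 fell. Scd2, a fatty acid desaturase, fell by 1.09 in bulk (edgeR adjusted p = 0.00737), though not without Pdgfra-/Cd36+ replicate 1 (adjusted p = 0.0710), and Acly, which makes acetyl-CoA for lipogenesis, did not pass the test (0.0778). Lpl, which frees fatty acids from lipoproteins, rose by 2.36 (SE 0.60, edgeR adjusted p = 0.0161), with adjusted p of 0.0881 and 0.0576 without Pdgfra-/Cd36+ replicate 1 and replicate 2.

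Most genes of the adrenergic and cAMP signalling list rose in bulk, but no adrenoceptor is described singly. Summed, the list was lower in the members than in progenitor-panel cells. It stood at 1728 against 3243 CPM on 10x and at 1200 against 4036 CPM on Smart-seq2. Mrap, a partner of melanocortin receptors, had 129 UMIs against 1 and rose in bulk by 6.65 (SE 0.78), and Prkar2b, the regulatory subunit of protein kinase A in fat, rose by 5.25 (SE 0.27). Of 11 genes of adrenergic and cAMP signalling 9 rose and 1 fell in bulk, and 4 of 8 on 10x and 8 of 11 on Smart-seq2 were at least 2-fold higher, with 2 and 1 at least 2-fold lower. The gene that fell was Gnas, which makes the stimulatory G protein α subunit, at 391 and 428 CPM against 924 to 2736 CPM (log2 -1.84, SE 0.49, edgeR adjusted p = 0.0186). Without Pdgfra-/Cd36+ replicate 1 or replicate 2 its adjusted p was 0.107 or 0.111.

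The nuclear genes of oxidative metabolism were higher in the members. All 21 genes of the citrate cycle rose in bulk with a median log2 fold change of 2.89, and 20 of 21 on 10x and 21 of 21 on Smart-seq2 were at least 2-fold higher in members. Idh3a, a catalytic subunit of NAD-dependent isocitrate dehydrogenase (chr9:54586334-54604661), stood at 2316, 2638, 2491 and 1922 CPM on the plates against 70.2 CPM in progenitor-panel cells. In bulk Idh3a stood at 1940 and 1684 CPM against 71.4 to 104.9 CPM (log2 4.68, SE 0.20, edgeR adjusted p = 1.16e-05). Mdh2 and Sdhb, which act after it in the cycle, rose by 2.89 (SE 0.14) and 3.00 (SE 0.13).

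Of 18 genes of fatty acid oxidation 17 rose in bulk with a median of 3.37, all but Cpt1a, the form of the fatty acid carrier found outside muscle, and 16 of 17 on 10x and 16 of 18 on Smart-seq2 were at least 2-fold higher. Hadh and Acaa2, which carry out the last steps of β-oxidation, had 307 and 234 UMIs in the 10x members against 14 and 14. They stood at 1395 to 1542 CPM and at 1392 to 1743 CPM on the 4 plates. Etfa and Etfb, the flavoprotein that takes the electrons, rose by 3.63 (SE 0.15) and 3.74 (SE 0.14). Of 74 nuclear genes of the electron transport chain 72 rose with a median of 2.62, and 66 of 72 on 10x and 71 of 73 on Smart-seq2 were at least 2-fold higher. Cox4i1, the regulatory subunit of cytochrome c oxidase, stood at 2271 and 2066 CPM in the Pdgfra-/Cd36+ libraries against 476 to 506 CPM (log2 2.45, SE 0.13, edgeR adjusted p = 1.40e-05). Cox6c, another subunit of that enzyme, rose by 1.78, but its Pdgfra+ libraries ran from 174 to 523 CPM, and its adjusted p was 0.104 without Pdgfra-/Cd36+ replicate 1 and 0.0554 without replicate 2.

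The proteins that bring nuclear-encoded subunits into the organelle went the same way. All 23 genes of mitochondrial chaperones and import rose in bulk with a median of 2.48, and 21 of 23 on each single-cell platform were at least 2-fold higher. The chaperonins Hspe1 and Hspd1, which fold imported proteins, rose by 3.26 (SE 0.20) and 2.57 (SE 0.13). Tomm20, an import receptor of the outer membrane, had log2 ratios of 0.78 on 10x and 0.98 on Smart-seq2, and rose by 0.86 (SE 0.14) in bulk. Summed over the list, the nuclear genes of the electron transport chain made up 58323 to 66847 CPM of the Pdgfra-/Cd36+ libraries and 12041 to 13158 CPM of the Pdgfra+ libraries.

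Since genes of these lists moved in 1 direction, their promoters were searched for the site of the Esrra family, TCAAGGTCA, on both strands, in the RefSeq promoters of build GRCm38.p6 (250 bases before to 50 after the start). It stood in 0.407% of all 27025 promoters, in 1 of the 18 citrate cycle promoters found (Sdhd), in 0 of 16 of fatty acid oxidation, in 1 of 61 of the nuclear electron transport chain (Atp5g3), and in 1 of 21 of mitochondrial chaperones and import (Timm8b). The direct repeat of AGGTCA spaced by 1 base, read by Ppara and Pparg with Rxra, stood in 0.0444% of all promoters and in none of those lists. Both promoters of the first 3 lists that held the Esrra site are shown, with the site in capitals. It reads TGACCTTGA since it lies on the other strand.
Atp5g3 (chr2:73911277-73911576, minus strand, site at bases -52 to -44 from the start): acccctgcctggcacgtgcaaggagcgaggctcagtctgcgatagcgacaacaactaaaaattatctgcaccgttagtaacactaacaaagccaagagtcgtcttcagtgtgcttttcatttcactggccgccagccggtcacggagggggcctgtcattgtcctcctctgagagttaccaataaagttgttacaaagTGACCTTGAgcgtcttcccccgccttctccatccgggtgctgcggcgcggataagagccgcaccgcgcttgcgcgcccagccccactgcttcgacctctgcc
Sdhd (chr9:50603800-50604099, minus strand, site at bases 36 to 44 after the start): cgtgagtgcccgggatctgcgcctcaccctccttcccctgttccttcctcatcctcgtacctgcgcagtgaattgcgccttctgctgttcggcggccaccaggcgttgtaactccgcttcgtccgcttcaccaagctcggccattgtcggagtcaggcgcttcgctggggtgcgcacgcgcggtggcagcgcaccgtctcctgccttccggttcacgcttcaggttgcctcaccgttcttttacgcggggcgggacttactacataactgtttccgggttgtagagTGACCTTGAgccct
Sdhd, a membrane anchor of succinate dehydrogenase, rose in bulk from a mean of 122 CPM to 939.5 CPM (log2 3.26, SE 0.14, edgeR adjusted p = 1.16e-05). Atp5g3, which encodes a copy of the proton ring of ATP synthase also made from other genes, rose from 157 to 197 CPM (log2 0.64, SE 0.13, edgeR adjusted p = 0.00618). The match of letters is a description and says nothing of binding, and the absence of these letters from a window of 300 bases says nothing of the factor.

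Genes of DNA replication and mitosis were detected in most of the members. On 10x the S phase list was higher in members than in progenitor-panel cells by a median of 1.17, with 8 of 14 genes at least 2-fold higher, and the G2 and M phase list by 1.19, with 9 of 13. On Smart-seq2 the medians were 1.64 and 2.597, with 11 of 14 and 13 of 13 genes. Rrm2, the ribonucleotide reductase subunit of S phase, stood at 943, 825, 714 and 896 CPM on the 4 plates against 65.4 CPM, and Top2a, the topoisomerase of dividing cells, at 306, 334, 304 and 437 CPM against 55.9 CPM. Depth differed between the classes, so each 10x cell was thinned to 1000 UMIs. Then 72.5% of 204 members had at least 1 UMI of a G2 and M gene (65.9% to 78.6%), against 23.4% of 171 progenitor-panel cells, 35.2% of 267 dermal-panel cells and 57.3% of 82 muscle-progenitor-panel cells. Without thinning the first of these shares was 82.9%. At least 3 such genes were found in 20.6% of the thinned members, 6.43% of progenitor-panel, 14.2% of dermal-panel and 26.8% of muscle-progenitor-panel cells, so that the last class stood above the members on this measure.

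On Smart-seq2, thinned to 100000 counts, Mki67, the proliferation marker, was found in 82.8% of 64 members, 22.4% of progenitor-panel cells, 34.4% of dermal-panel cells and 66.1% of 62 muscle-progenitor-panel cells. On thinned 10x cells Mki67 was found in 11.8% of members and 12.2% of muscle-progenitor-panel cells. Against dermal-panel cells the G2 and M medians were 0.67 on 10x and 0.78 on Smart-seq2. Of 14 S phase genes 6 rose in bulk and 1 fell, with a median of 0.16. Of 13 G2 and M genes 7 rose in bulk, with a median of 0.91. Rrm2 rose by 1.76 (SE 0.27, edgeR adjusted p = 0.00163), while Pcna, the replication clamp, stood at 159 and 192 CPM against 172 to 236 CPM (0.563) and Top2a at 232 and 334 CPM against 141 to 319 CPM (0.201). Ube2c, which drives mitotic exit, rose by 0.97 (edgeR adjusted p = 0.0270) but lost its call without Pdgfra-/Cd36+ replicate 1 (0.0786) or replicate 2 (0.170), and without 3 of the 4 Pdgfra+ libraries (0.0517 to 0.0559). Birc5, which guides chromosomes through division, rose by 1.32 but had an adjusted p of 0.0550 without Pdgfra-/Cd36+ replicate 2.

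Genes of the matrix and of the progenitor state were low in the members. Of 19 matrix genes 16 on 10x and 19 on Smart-seq2 were at least 2-fold lower than in progenitor-panel cells, and 17 fell in bulk with a median of -3.95. Col1a1, the main collagen of connective tissue, stood at 328 and 279 CPM in the Pdgfra-/Cd36+ libraries against 14064 to 23564 CPM (log2 -5.58, SE 0.33, edgeR adjusted p = 2.22e-05). On 10x Col1a1 had 414 CPM in members against 8032 CPM, with 2113 and 1294 CPM in the members of 1 and 2 panel genes and 176 and 103 CPM in those of 3 and 4. On the 4 plates it had 354.5, 2017, 24.6 and 86.5 CPM, and 78.1% of its counts came from 1 cell of plate b2 with a mitochondrial share of 8.00%, while the median member had 1 count. Of 12 progenitor and fibroblast genes 12 on Smart-seq2 and 10 of 10 on 10x were at least 2-fold lower, and 10 fell in bulk with a median of -4.09. Pdgfra, which was used for the sort, is among those that fell, and its change of -5.47 only checks the sort. The comparison cells on both platforms were those led by the progenitor panel, so the single-cell counts are a description only.

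Dlk1, an inhibitor of adipogenesis, was lower in the members but still detected in most of them. It was found in 162 of 210 10x members and 61 of 64 Smart-seq2 members, at 1649 CPM on 10x against 9841 CPM in progenitor-panel cells. In bulk Dlk1 stood at 67.7 and 108 CPM against 541 to 2051 CPM (log2 -3.38, SE 0.65, edgeR adjusted p = 0.00467), with an adjusted p of 0.0511 without Pdgfra-/Cd36+ replicate 1. Igf2, a growth factor made from an imprinted gene, had 86.9 CPM on 10x against 689 CPM and fell in bulk by 3.83 (SE 0.68). The genes that respond to tissue dissociation were lower too, with 8 of 10 at least 2-fold lower on 10x, 7 of 9 on Smart-seq2 and 8 of 10 that fell in bulk. Egr1, an immediate early gene, fell by 1.76 (SE 0.26, edgeR adjusted p = 0.00144), and Jun, another, did not pass the test (0.278).

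Most markers of vessel cells and macrophages were at or near 0 in the members, with Egfl7 as an exception on 10x and Pecam1 and red cell genes on Smart-seq2. Among 10 endothelial markers 7 were at 0 on 10x, Cdh5, Kdr, Tie1, Tek, Cldn5, Esam and Plvap, and the list summed to 36.8 CPM against 59.6 CPM in progenitor-panel cells. Of that sum Egfl7 held 25.1 CPM, against 4.48 CPM in dermal-panel cells. Of 2 endothelial markers with enough UMIs, 1 was at least 2-fold higher than in progenitor-panel cells and 1 at least 2-fold lower. Macrophage and red cell markers summed to 1.67 CPM each, 1 UMI. On Smart-seq2 the sums were 42.6 CPM for 9 endothelial markers, with Cdh5 at 0, and 0.317 CPM for 4 macrophage markers. Pecam1, an adhesion protein of vessel cells, was found in all 64 Smart-seq2 members at 31.6 CPM, against 45.8 CPM in progenitor-panel cells. Red cell markers summed to 18.5 CPM in the members and 5.62 CPM in progenitor-panel cells, and all 4 genes with enough counts were at least 2-fold higher. By plate the members' sum was 89.4 CPM on b4 and 0.175 to 2.82 CPM on the others. In bulk the endothelial list summed to 119 to 135 CPM in the Pdgfra-/Cd36+ libraries and to 112 to 123 CPM in the Pdgfra+ libraries. Of its 10 genes Pecam1 rose (log2 1.74, SE 0.14) and Tek fell (log2 -4.91). The macrophage list summed to 13.4 to 15.7 CPM against 25.04 to 48.4 CPM, and the red cell list to 283 to 513 CPM against 538 to 975 CPM. The part of these cells in the results was not tested. Muscle markers summed to 122 CPM on 10x, and on Smart-seq2 1 member of plate b3 held 1370 of the 1371 counts of Myog and 97.6% of those of Actc1, at a mitochondrial share of 8.48%.

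Of 11 genes that the study follows in brown adipocytes 8 rose and 1 fell in bulk, with a median of 3.48. Cd36, which was used for the sort, is among those that rose, and its own change is that median. On 10x 8 of 10 and on Smart-seq2 8 of 11 were at least 2-fold higher, with 1 and 2 at least 2-fold lower. The study chose them on these samples, so their direction is no independent evidence.

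Markers named for white adipocytes did not separate the members in 1 direction. Of 9 such genes 2 rose in bulk and 3 fell, and on Smart-seq2 3 of 8 were at least 2-fold higher and 4 at least 2-fold lower. The genes that rose were Retn, an adipocyte hormone, by 3.66 (SE 0.41), and Nnat, a small membrane protein of the endoplasmic reticulum, by 1.93 (SE 0.25). Nnat was found in 71 of the 10x members and stood at 229.5, 232, 318 and 270.2 CPM on the 4 plates.

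Outside every list, the 10 genes highest in members against progenitor-panel cells included genes of mitochondria and lipid. Coq8a, a kinase-like protein of ubiquinone synthesis, had 61 UMIs against 1 on 10x, stood at 1376, 1374, 1326 and 912 CPM on the plates, and rose in bulk by 6.38 (SE 0.35, edgeR adjusted p = 1.70e-05). Pla2g16, a phospholipase of adipocytes, had 146 UMIs against 2 and rose by 4.64 (SE 0.71). Cisd1, an iron-sulphur protein of the outer mitochondrial membrane, rose by 3.795 (SE 0.19), Mrpl12, a mitochondrial ribosome protein, by 3.79 (SE 0.17), and Afg3l2, a protease of the inner membrane, by 2.05 (SE 0.15). S100a1, Fam213a, Stard7 and Mcrip2 rose by 4.67, 4.27, 3.23 and 5.70. The exception was Cav1, the caveolar coat protein, at 682.3 and 681.5 CPM against 51.2 to 919 CPM (log2 0.79, SE 1.08, edgeR adjusted p = 0.588), which on 10x was higher than in progenitor-panel cells by 3.84 but -0.42 against dermal-panel cells (log2 ratios). Among the 10 genes lowest in members, C1qtnf3, a secreted relative of adiponectin, had 2 UMIs against 73 and fell by 6.16 in bulk. All 10 fell in bulk, but Col11a1 and Angptl1 had adjusted p of 0.0629 to 0.1175 without either Pdgfra-/Cd36+ library.

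The members kept by dropping the mitochondrial limit were compared with those under it on Smart-seq2, on CPM that leave out mitochondrial genes. The 49 members over 8% had a median of 865896 counts and 8135 genes, and the 15 at or under 8% had 714951 counts and 8458 genes. The adipocyte panel that chose the cells summed to 32219.5 CPM over and 22418 CPM under 8%. Markers of other cell types also differed. Over against under 8% the pericyte list summed to 56.7 and 246 CPM, the cartilage list to 14.4 and 118 CPM, and the progenitor panel to 53.1 and 210.4 CPM. The dermal panel summed to 180.1 and 29.9 CPM and the muscle list to 145 and 6.59 CPM. The cells over 8% included the plate b3 member above and the plate b2 member with 78.1% of the Col1a1 counts. That plate b2 member scored 3.21 on the adipocyte panel and 2.98 on the dermal panel. The part of these markers and cells in the values below was not tested. Over all 12738 genes with enough counts, 18.9% were at least 2-fold higher in the cells over 8% and 13.3% at least 2-fold lower, with a median log2 ratio of 0.04, and 6585 of the 12738 were higher by any amount. All 18 genes of fatty acid oxidation were higher in the cells over 8%, 7 of them at least 2-fold, with a median of 0.86. The citrate cycle had 21 of 21 genes higher by any amount but 1 at least 2-fold, with a median of 0.54, and the nuclear electron transport chain had 67 of 73 higher but 0 at least 2-fold, with a median of 0.38. Mitochondrial chaperones and import showed no such shift, with 11 of 23 genes higher and a median of -0.05.

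On the 3 plates that held both kinds of cell, single genes did not all keep 1 direction. Acaa2 had 2208 CPM over and 935 CPM under 8% on plate b1, 2291 and 857 on b2, and 1812 and 660.5 on b4. Etfb, of the same list, had 1896 and 793 CPM on b1 but 1411 and 1638 CPM on b4, and Cox6c, of the electron transport chain, 703 and 426 CPM on b1 but 480 and 769.7 CPM on b4. Of the thermogenic genes, Cidea had 493 and 28.9 CPM on b1, 370 and 119 on b2, and 273 and 172 on b4, and was found in 44 of 49 cells over and 8 of 15 under 8%. Pparg did not keep 1 direction, with 534 and 390.2 CPM on b1 but 612 and 653 CPM on b4. Ucp1 did not either, with 81.98 and 66.3 CPM on b1, 77.2 and 7.51 on b2, and 75.1 and 135 on b4, and was found in 17 of 49 and 8 of 15 cells. Of the S phase genes 2 of 14 were higher, with a median of -0.57, and of the G2 and M genes 11 of 13, with a median of 0.49. On 10x, 9 members over 8% were set against 201, where 27% of 5447 genes were at least 2-fold higher and 10.3% at least 2-fold lower, with a median of 0.25. Fatty acid oxidation had a median of 0.82 there, the citrate cycle 0.61, S phase -0.65, and G2 and M phase -0.78, so that the last list differed in sign between the platforms. No test was made, since cells of a plate are not replicates and 1 plate held no member under 8%.

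**Figure D5:**
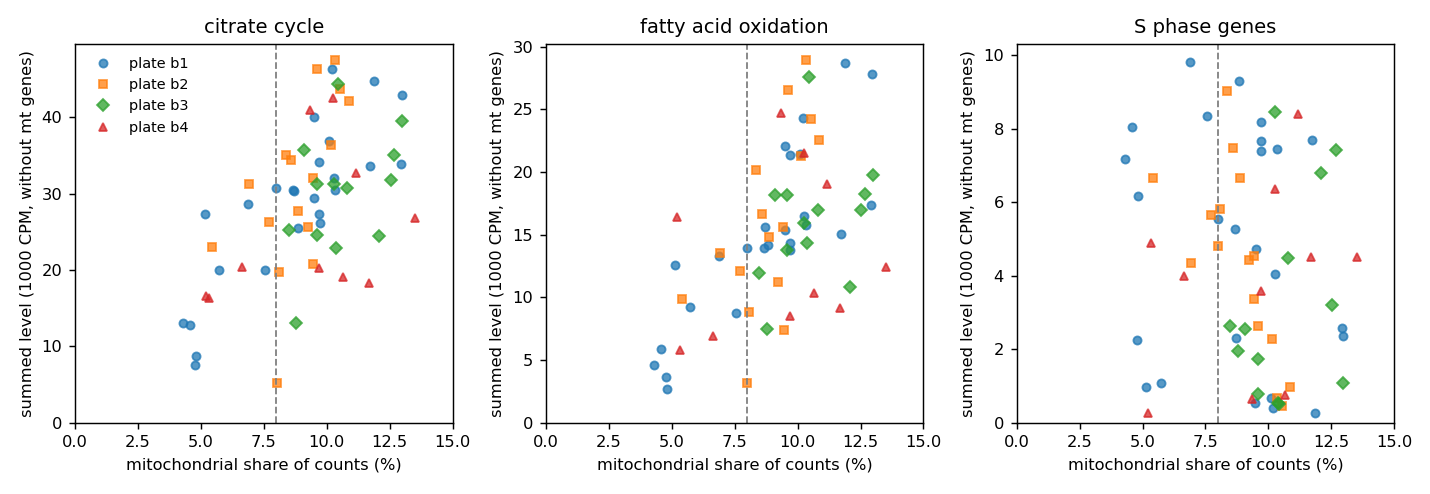
Smart-seq2 members of the 4 plates (64 cells), with the mitochondrial share of counts on the x axis (%) and the summed level of a list on the y axis (1000 CPM over counts without mitochondrial genes) for the citrate cycle, fatty acid oxidation and S phase genes. The dashed line marks 8%; the first 2 lists rise along the axis (Spearman 0.55 and 0.58), and S phase genes do not (-0.19).

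Across single members the mitochondrial share went with the nuclear genes of the same organelle. Over the 64 Smart-seq2 members the Spearman correlation of the mitochondrial share was 0.54 with the nuclear electron transport chain, 0.55 with the citrate cycle, 0.58 with fatty acid oxidation and 0.43 with lipid droplet genes, each as CPM without mitochondrial genes. Over the 210 10x members the values were 0.63, 0.61, 0.62 and 0.41. These 10x values include the 31 members with 1 panel gene. Those cells had a median mitochondrial share of 1.41% and no UMI of Chchd10, Gpd1 or Pparg. Their part in the correlations was not tested. Matrix genes ran against it, at -0.54 and -0.39. The cell total had correlations of 0.32 and 0.12 with the mitochondrial share, and the score of the adipocyte panel, which chose the cells, 0.44 and 0.58. These cells share libraries and plates, and the values are given as a description.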

How the data were processed

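Single cells of E12.5, E14.5 and E16.5 and bulk libraries of E16.5 were used. For the 10x libraries the authors deposited UMI counts per gene and cell from Cell Ranger. For Smart-seq2 the authors deposited expected counts estimated with kallisto 0.44.0 and summed per gene with tximport. For bulk samples the authors deposited raw read counts, and the submitters' notes name STAR and mm10, while the counter is not given in the sources used here. Of 18 bulk columns 12 were not used. Cells without YFP had been removed by the authors, and a limit on mitochondrial counts that the methods state was not fully applied in the deposited tables, which is why cells over it could be kept.

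Members and gene lists were chosen with earlier results of these data known. CPM of summed cells were compared with 0.5 counts added to each sum, over genes with at least 10 UMIs (10x) or 1 CPM (Smart-seq2), and a 2-fold difference was marked, with no test. Poisson and Clopper-Pearson intervals (95%) cover counting error only, and a count of 0 was set to a floor of 3 counts over the class, with nothing added to the other class. Bulk counts were tested with edgeR 4.0.16 (quasi-likelihood, TMM, filterByExpr, R 4.3.3) and Benjamini-Hochberg adjustment. Contrasts of 2 sorted groups each had been designed; since the sign of Thy1 is lost, 2 Pdgfra-/Cd36+ libraries were tested against 4 Pdgfra+ libraries. On simulated data of 17545 genes with 200 changed and the spread of the 6 libraries, 36% of 4-fold and 1% of 2-fold changes were recovered. Of the calls 2.63% were false. The measured comparison called 43.2% of genes, a far larger part, so these recoveries need not hold for it. Scrublet doublets were kept. Named genes were all genes of the adipocyte panel, the thermogenic, transcription factor and lipid droplet lists and those the study follows, up to 4 genes with the highest 10x CPM of each other list, the 10 highest and 10 lowest genes outside the lists with at least 50 UMIs and a 2-fold difference on Smart-seq2 too, and genes whose promoters held the searched site. Sex-linked genes were left out. Not every gene that this rule names is described singly, and 1 of them is not reported here. Cpt1a, Tek, Timm8b and the mitochondrial genes mt-Co3 and mt-Nd6 fall outside that rule and were named after their values were seen. Gene positions are from GENCODE vM21 (GRCm38). Alternatives covered thresholds, panel genes, doublets, totals, plates, comparison cells, DESeq2 1.42.0, size factors, filters and libraries left out. Python 3.11.15, pandas 2.3.3, scipy 1.17.1 and scanpy 1.11.5 were used.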

Additional observations from a re-analysis of the deposited data

Results flagged for a closer look

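Among the 4 Smart-seq2 plates, the highest or lowest value of the members stood apart by Dixon's test at its 95% level for 8 of 81 measures. Chance marks about 1 in 20 groups. The measures were levels of single genes, the share of members and the median mitochondrial share. Plate b1 was high for Elovl3 at 1.26 CPM (others 0 to 0.0875), Fndc1 at 0.906 CPM (0 to 0.0632) and Col11a1 at 1.46 CPM (0 to 0.177). Plate b3 was high for Fitm1 at 1.05 CPM (others 0). Plate b2 was high for Pla2g16 at 275.6 CPM (251 to 255). Plate b4 was high for Car3 at 25388 CPM (21416 to 21702) and Fam213a at 377 CPM (287 to 288), and low for Coq8a at 912 CPM (1326 to 1376).

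Among the 4 Pdgfra+ bulk libraries 3 of 81 measures, which were levels of single genes and the mitochondrial share, had a library apart by the same test. These were Ehmt1, low at 52.4 CPM in the second library of replicate 1 (others 68.2 to 71), Dio2, high at 0.924 CPM in the first library of replicate 2 (0.425 to 0.471), and Fitm2, high at 23.6 CPM in the second library of replicate 1 (14.7 to 16.2). The cause of these values was not tested.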

How the results depend on the processing

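Of 3753 log2 ratios of single genes recomputed under the alternatives, 3680 stayed at least 2-fold or had been under 2-fold at first. Another 61 went from at least 2-fold to under it. Sign changes of ratios that had been under 2-fold were not counted apart. Of the ratios that had been at least 2-fold 12 changed sign, all of them with dermal-panel cells as the comparison. These were, on 10x, Cav1 (-0.42) and Hk2 (0.17), and on Smart-seq2 Cav1 (-0.50), Hk2 (1.88), Angptl1 (8.45), C1qtnf3 (4.45), Cebpd (0.86), Col11a1 (0.18), Ebf3 (7.57), Gamt (0.11), Gatm (7.79) and Pik3r1 (-0.071). With that comparison the median of the G2 and M list was 0.67 on 10x and 0.78 on Smart-seq2, of the S phase list 0.93, of the nuclear electron transport chain 2.30 and of the mitochondrial one 1.80 on Smart-seq2. Without cells over 8% the Smart-seq2 share of members was 5.16%, their median mitochondrial share 5.42%, and the medians were 2.59 for the citrate cycle, 2.76 for fatty acid oxidation, 2.19 and 1.41 for the nuclear and mitochondrial electron transport chain and 2.19 for S phase. With CPM that leave out mitochondrial genes, fatty acid oxidation was at 3.48 and the nuclear electron transport chain at 2.59 on Smart-seq2. With 3 counts added the citrate cycle on 10x was at 2.22. With members that had at least 2 panel genes, an alternative chosen after seeing the data, the 10x share was 18.9% and the median mitochondrial share 3.72%. The cause of these shifts was not tested.

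Leaving out 1 bulk library gave between 2299 and 3516 genes that rose and between 2418 and 3755 that fell, against 3751 and 3829 with all 6. The counts were 2490 and 2486 without Pdgfra-/Cd36+ replicate 1 and 2299 and 2418 without Pdgfra-/Cd36+ replicate 2, when the lone library is assumed to vary like the others. DESeq2 gave 3766 and 4646. With the replicate block 3413 genes rose and 3463 fell, and of 143 named calls 140 remained, without Pik3r1, Csf1r and Erbb3. The replicate numbers did not pair the libraries by their deviations (r = 0.0417 over 17545 genes). A fit of only the 2 groups compared could not be run, since the sign of Thy1 is lost. Depth limits single genes of few UMIs on 10x. In the simulated bulk data 2-fold changes were mostly unrecovered, but only 200 of 17545 genes were changed there. The measured comparison called 43.2% of genes, so that recovery need not hold for it.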
